A study of Homo sapiens with 18 samples.

Results

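Plasma cells are recognised by a small set of surface, secretory and transcription factor genes, and 10 of these genes were followed across KMS11 cells in which the histone methyltransferase MMSET (gene symbol NSD2) was lowered or put back. The surface genes were SDC1 (CD138), CD38, TNFRSF17 (the receptor BCMA) and SLAMF7 (CS1). The secretory genes were MZB1, JCHAIN and FKBP11, and the transcription genes were IRF4, PRDM1 (BLIMP-1) and POU2AF1 (OBF-1). They were taken by name as genes that define plasma cells, with every probe annotated to them, which gave 16 of the 48803 probes of the array. Of these, 13 probes were detected on at least 3 of the 18 arrays, at a detection p-value under 0.01. They covered 9 of the 10 genes, out of 8947 named genes measured, and CD38 was detected on no array.

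RNA was measured on Illumina bead arrays of KMS11, a human multiple myeloma cell line, in 6 groups of 3 arrays. In the hairpin system, a doxycycline-inducible short hairpin RNA against the 5' region of MMSET was switched on (+DOX) or left off (no DOX). No group had doxycycline without this hairpin, so the drug and the hairpin cannot be told apart. In the repletion system, cells labelled MMSET knock-outs were infected with a retrovirus for wild-type MMSET II, the F1177A mutant (labelled active), the Y1118A mutant (labelled inactive) or DSRed as the empty-vector control. The knock-out label therefore applies to all 4 repletion groups, DSRed included, and the hairpin construct to both hairpin groups. The labels call the arrays triplicates and give neither separate cultures nor the number of clones, so the tests gauge array-to-array spread alone, and that spread may be purely technical.

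A plasma cell arises when a B cell switches on IRF4 and PRDM1, silences the earlier B-cell programme and enlarges its endoplasmic reticulum to make antibody. SDC1 is a heparan sulfate proteoglycan, CD38 an NAD-consuming ectoenzyme, TNFRSF17 a receptor for the survival factors BAFF and APRIL, and SLAMF7 a homophilic adhesion receptor. MZB1 is an endoplasmic reticulum protein that assists immunoglobulin assembly, JCHAIN joins the subunits of polymeric IgA and IgM, and FKBP11 is a prolyl isomerase of the same compartment. IRF4 is a factor on which myeloma cells depend, PRDM1 is a repressor of B-cell genes, and POU2AF1 is a coactivator of the octamer-binding factors. Myeloma is a cancer of plasma cells, and several of these surface proteins are therapy targets.

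Levels are given as background-corrected, quantile-normalised log2 intensity, and differences are log2 differences in these levels. Array brightness, as the 95th percentile of intensity, was 430.3 to 620.7 with +DOX and 241.5 to 349.4 with no DOX. It was 621.9 to 889.5 with MMSET II, 368.5 to 493.1 with F1177A, 746.5 to 775 with Y1118A and 453.5 to 1033 with DSRed, and its part in the results was tested only as a covariate. The number of arrays, 3 in a group, limits the precision. Over all features the correlation between arrays was 0.957 to 0.998 within a system and 0.884 to 0.913 between systems, so the systems stand apart. NSD2 itself, at its only detected probe of 4, was 5.94 ± 0.06 with +DOX and 6.64 ± 0.15 with no DOX (log2, SD, n = 3 each), a difference of -0.70 (SE 0.132, limma adjusted p = 0.000369). Under median scaling that difference was -0.16 and not called (adjusted p = 0.515), or -0.64 relative to all features. In the repletion cells that probe read 5.63 to 5.80 in the 4 group means, with no call against DSRed, and whether it lies in the retroviral constructs was not tested.

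The promoters of the secretory members are shown because MZB1 and FKBP11 moved together in the data below and JCHAIN did not always follow them. RefSeq promoter sequences (GRCh38.p14) were found for 7 of the 10 genes, with 10 start sites among them. The 250 bases before the start site are printed 5′ to 3′ on the gene's strand, with each match to ACGTGG, on either strand, in capitals. In MZB1 the 2 matches overlap on opposite strands. They lie at chr5:139389914-139390163 (minus strand) for MZB1, at chr12:48925493-48925742 (minus strand) for FKBP11, the upstream of its start sites, and at chr4:70666509-70666758 (minus strand) for JCHAIN.
MZB1: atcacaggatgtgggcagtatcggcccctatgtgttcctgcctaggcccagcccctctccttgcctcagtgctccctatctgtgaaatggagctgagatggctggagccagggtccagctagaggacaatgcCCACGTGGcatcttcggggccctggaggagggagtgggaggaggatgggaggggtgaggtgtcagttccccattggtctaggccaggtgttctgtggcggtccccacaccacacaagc
FKBP11: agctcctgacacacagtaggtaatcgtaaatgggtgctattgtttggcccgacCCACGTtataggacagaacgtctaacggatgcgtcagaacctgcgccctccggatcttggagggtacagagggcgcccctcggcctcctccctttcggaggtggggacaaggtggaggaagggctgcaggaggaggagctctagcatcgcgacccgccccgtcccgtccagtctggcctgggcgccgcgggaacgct
JCHAIN: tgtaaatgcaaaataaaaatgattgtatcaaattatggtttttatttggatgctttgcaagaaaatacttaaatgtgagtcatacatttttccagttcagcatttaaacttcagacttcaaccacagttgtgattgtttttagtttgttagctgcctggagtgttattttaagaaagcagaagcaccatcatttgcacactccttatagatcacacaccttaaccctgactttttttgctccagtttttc
ACGTGG is the end of TGACGTGG, an element bound by XBP1 and ATF6 in the unfolded protein response. The 6 letters were chosen after the sequences had been read, so their count among the members cannot serve as a test. They stood in 3 of the 10 member windows (MZB1, the upstream start site of FKBP11 and the first start site of PRDM1). The other start site of FKBP11 had 0 matches. Of all 35116 promoter windows of that length, 8.37% held the 6 letters. The full TGACGTGG was in 0 of the 10 windows and 0.612% of all. The octamer ATTTGCAT, which the factors partnered by POU2AF1 bind, was in 0 of 10 and in 1.63% of all. The pattern AANNGAAA was in 1 of 10 (CD38) and in 20.3% of all. It is only part of the ETS and interferon-response composite to which IRF4 binds with PU.1. GTGAAAGT, a core sequence of PRDM1 sites, was in 0 of 10 and in 0.672% of all. Each search covered both strands, and a match is a string of letters only.

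SDC1 differed more between the systems than between groups within one. In the repletion cells SDC1 was dim, detected on 7 of the 12 arrays, and SLAMF7 was at background. SDC1 read between 4.58 and 6.47 on the 12 repletion arrays, against 9.99 to 11.24 on the 6 hairpin arrays. DSRed cells averaged 6.29 ± 0.18 and no DOX cells 10.58 ± 0.52 (SD, n = 3 each), a gap of -4.29 or 19.6-fold lower with DSRed. SLAMF7 was detected on 0 of the 12 repletion arrays and on 3 of the 6 hairpin arrays, and its levels of 4.24 to 4.36 in repletion cells lay below all 6 hairpin values of 5.16 to 5.78. DSRed cells were at least 1.1-fold lower in SLAMF7 than no DOX cells, which is a bound because the probe was not detected with DSRed. JCHAIN was also lower on every repletion array (10.74 to 12.15) than on every hairpin array (12.62 to 13.22), and so was FKBP11 (10.35 to 11.69 against 11.70 to 12.83). TNFRSF17, MZB1, IRF4, PRDM1 and POU2AF1 overlapped between the systems. These gaps are descriptions without a test, and knock-out, virus, clone, handling and the identity of the cells, which the labels alone give as KMS11, cannot be told apart in them.

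**Figure D1:**
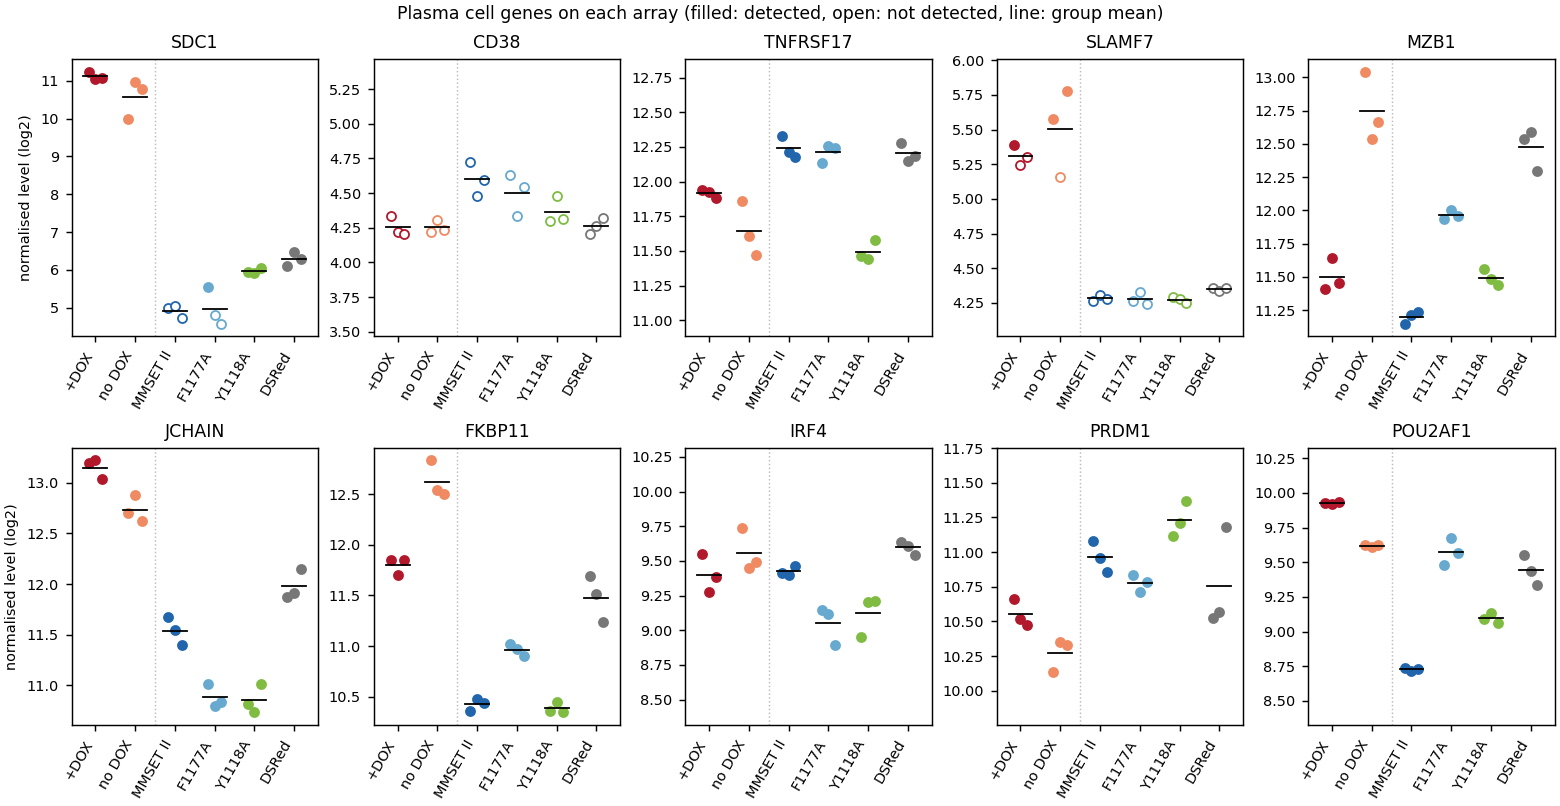
Normalised log2 level of the 10 plasma cell genes on each of 18 arrays, 1 panel per gene, with groups along the x axis, filled points for detected and open points for undetected values, and a line at each group mean. The dotted line parts the hairpin system (left) from the repletion system (right). SDC1 lies at 9.99 to 11.24 in hairpin cells and at 4.58 to 6.47 in repletion cells, and CD38 is open on every array.

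Other lineage genes also parted the systems. The probe of IGLL1, a surrogate light chain gene that closely resembles the immunoglobulin lambda constant region, had intensities of 4693.8 to 5217.6 with +DOX and 1634.1 to 3104.3 with no DOX, against -1.8 to 11.2 on the 12 repletion arrays, none of which detected it. It was the only measured probe among 15 immunoglobulin genes listed, and signal of the lambda genes at this probe cannot be told apart from that of IGLL1. IKZF1, the lymphoid factor Ikaros, ran the other way. Its means were 8.43 to 8.94 in the 4 repletion groups, and it was detected on none of the 6 hairpin arrays. CD44, an adhesion receptor, and CD79B, a B-cell receptor subunit, were detected on no repletion array. In hairpin cells CD44 averaged 10.48 with +DOX and 10.33 with no DOX, and CD79B averaged 9.66 with +DOX and 10.36 with no DOX. Of the markers of other cells, none of 10 T and NK cell genes, 2 of 10 myeloid genes and 4 of 10 stromal and epithelial genes were measured. Summed intensities of the stromal and epithelial genes came from the authors' series matrix, scaled between arrays unlike the IGLL1 intensities. They were 1246.9 to 1395.8 with +DOX and 1002.5 to 1328.3 with no DOX. With MMSET II they were 169.7 to 199.7 and with F1177A 145.2 to 154. With Y1118A they were 71.8 to 89.2 and with DSRed 51.8 to 56.9. EPCAM was the brightest of the 4 measured genes in hairpin cells, at 10.15 with +DOX and 9.94 with no DOX. KRT18 came next, at 7.03 and 7.65. PDGFRB went the other way, undetected in hairpin cells and at means of 5.23 to 6.21 in the repletion groups. In these RNA pools, fewer cells of a kind and less RNA per cell cannot be told apart.

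With the hairpin on, the secretory members MZB1 and FKBP11 fell while JCHAIN, TNFRSF17 and POU2AF1 rose. Of the 9 measured members, 3 were higher and 2 lower, where 21.2% of all features were called higher and 20.1% lower (limma, adjusted p under 0.05). Their median difference was 0.27, against 0.01 over all features. The members thus moved both ways, in shares near those of all genes in this comparison.

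Repletion with any of the 3 MMSET II forms went with lower levels of all 3 secretory members relative to DSRed. With MMSET II, 0 members were called higher and 5 lower (SDC1, MZB1, JCHAIN, FKBP11 and POU2AF1), where 17% of features were higher and 15.8% lower. With F1177A, 0 were higher and 5 lower (SDC1, MZB1, JCHAIN, FKBP11 and IRF4), where 11.7% of features were higher and 8.79% lower. With Y1118A, 1 was higher (PRDM1) and 6 lower (TNFRSF17, MZB1, JCHAIN, FKBP11, IRF4 and POU2AF1), where 15.3% of features were higher and 12.4% lower. For MMSET II the median member difference was -0.44, against 0.002 over all features. For F1177A it was -0.51, against -0.01, and for Y1118A it was -0.47, against 0.01. MZB1, JCHAIN and FKBP11 were lower in all 3 comparisons, which share the same 3 DSRed arrays.

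Comparisons among the MMSET forms subtract no DSRed mean, although the DSRed arrays enter the normalisation and the shared estimate of spread. With the compared groups alone, 7 members were called for MMSET II against Y1118A, against 4 here. Against Y1118A, MMSET II cells had 2 members higher (TNFRSF17 and JCHAIN) and 2 lower (SDC1 and POU2AF1), where 9.16% of features were higher and 9.33% lower. Against MMSET II, F1177A cells had 3 higher (MZB1, FKBP11 and POU2AF1) and 2 lower (JCHAIN and IRF4), where 19.1% of features were higher and 19.7% lower. Against Y1118A, F1177A cells had 4 higher (TNFRSF17, MZB1, FKBP11 and POU2AF1) and 2 lower (SDC1 and PRDM1), where 17.8% of features were higher and 18.9% lower.

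**Figure D2:**
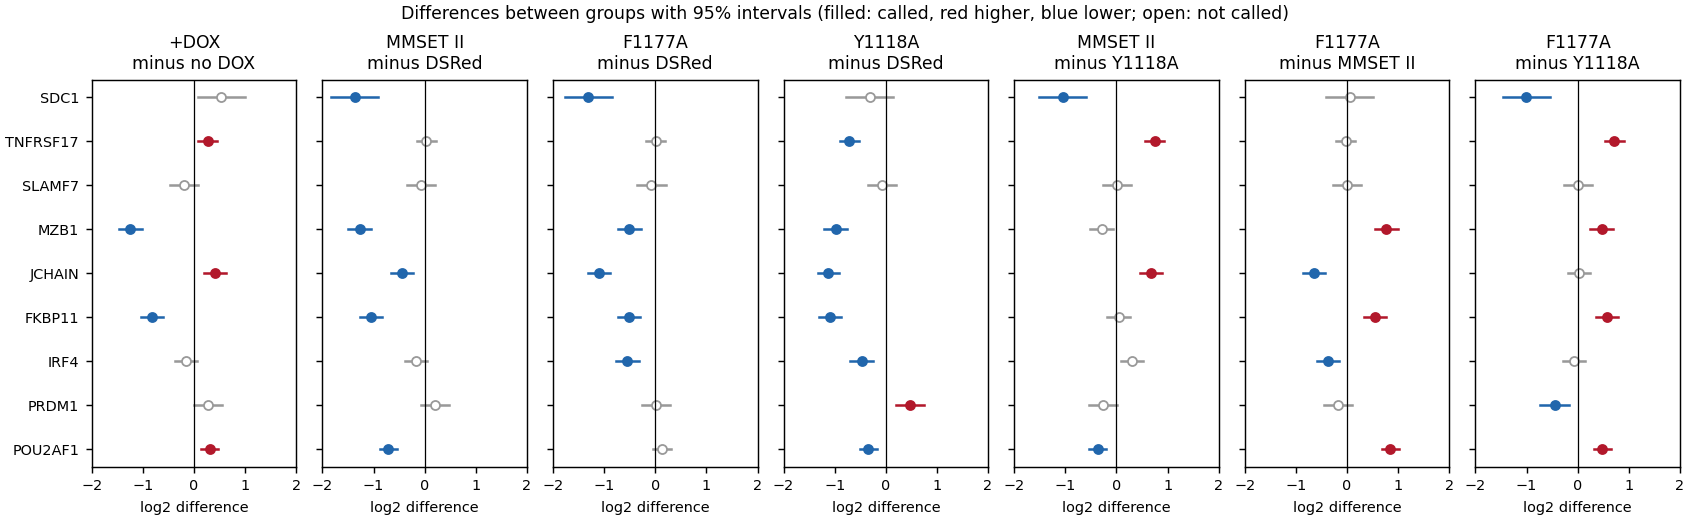
Log2 differences of the 9 measured genes (rows) in the 7 comparisons (panels), with points for the limma estimate and bars for its 95% interval, filled red for called higher, filled blue for called lower and open for not called. MZB1, JCHAIN and FKBP11 are blue in each of the 3 comparisons with DSRed.

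Scaling decided part of these calls. Under median scaling in place of quantile normalisation, the median of all features moved to 0.49 for +DOX against no DOX, 0.21 for MMSET II, -0.41 for F1177A and 0.21 for Y1118A against DSRed, and to -0.62 for F1177A against either MMSET II or Y1118A. It stayed at -0.001 for MMSET II against Y1118A. The share of calls that were higher went with it: for +DOX it was 95.9% under median scaling and 51.3% under quantile normalisation. The shares under median and quantile normalisation were 84.8% and 51.9% for MMSET II against DSRed, 18% and 57.2% for F1177A against DSRed, and 88.2% and 55.3% for Y1118A against DSRed. They were 67.9% and 49.5% for MMSET II against Y1118A, 2.63% and 49.2% for F1177A against MMSET II, and 3.91% and 48.5% for F1177A against Y1118A. Differences below are therefore relative to the bulk of genes, and the values under median scaling are given where a call was lost or a called direction turned. Among differences that were not called under quantile normalisation, 7 changed sign under median scaling without being called. They were IRF4 with +DOX (0.50) and with MMSET II against DSRed (0.12), SLAMF7 with +DOX (0.12), SDC1 for F1177A against MMSET II (-0.13), and TNFRSF17 (-0.42), PRDM1 (-0.47) and POU2AF1 (-0.36) for F1177A against DSRed.

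**Figure D3:**
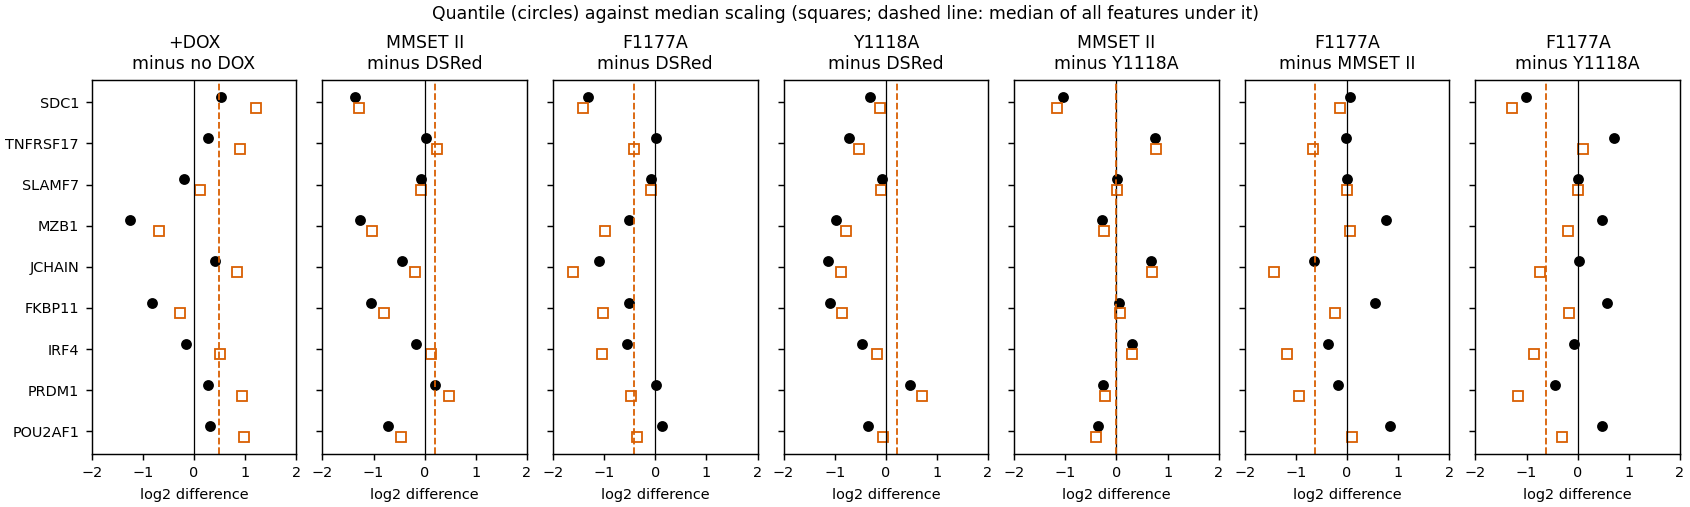
Log2 differences of the 9 measured genes (rows) in the 7 comparisons (panels) under quantile normalisation (black circles) and median scaling (open squares), with a dashed line at the median of all features under median scaling. In the comparisons of F1177A with MMSET II and Y1118A the squares sit left of the circles for most genes, and the median of all features is at -0.62.

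MZB1 was the member with the largest fall in the hairpin cells and it also fell with each MMSET form. Its bright probe read 11.41, 11.64 and 11.45 with +DOX, against 13.04, 12.53 and 12.66 with no DOX. The groups did not overlap, and the difference was -1.25 (SE 0.107, limma adjusted p = 6.64e-08), or 2.37-fold lower with +DOX. In repletion cells MZB1 read 11.15, 11.22 and 11.24 for MMSET II, 11.94, 12.003 and 11.96 with F1177A, 11.56, 11.48 and 11.44 with Y1118A, and 12.54, 12.59 and 12.30 with DSRed. Every array with an MMSET form was below every DSRed array. The difference from DSRed was -1.27 for MMSET II (SE 0.107, 2.42-fold lower). For F1177A it was -0.51, and for Y1118A -0.98. F1177A cells were higher than MMSET II cells by 0.77 and than Y1118A cells by 0.47. Under median scaling these last values were 0.05 (adjusted p = 0.842) and -0.20 (adjusted p = 0.403), or 0.67 and 0.42 relative to all features. The call against Y1118A was also lost with the mean of both probes (0.25, adjusted p = 0.13) and with brightness as a covariate (0.35, adjusted p = 0.1002).

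The second MZB1 probe gave smaller differences. It fell by 1.02 with +DOX (limma adjusted p = 0.000449) and by 0.83 with MMSET II against DSRed (adjusted p = 0.00327). With F1177A it was -0.50 and with Y1118A -0.53 relative to DSRed, without a call (adjusted p = 0.0807 and 0.0533). The F1177A difference was 0.33 from MMSET II and 0.03 from Y1118A at this probe, neither called (adjusted p = 0.204 and 0.918). The probes thus shared the fall with +DOX and MMSET II, and the calls with F1177A and Y1118A rest on the bright probe.

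FKBP11 fell in the same 4 comparisons as MZB1. It read 11.85, 11.70 and 11.85 with +DOX, against 12.83, 12.54 and 12.50 with no DOX, without overlap. The difference was -0.82 (SE 0.104), and under median scaling -0.28 and not called (adjusted p = 0.306), or -0.76 relative to all features. In repletion cells it read 10.36, 10.48 and 10.44 for MMSET II, 11.02, 10.97 and 10.90 with F1177A, 10.36, 10.45 and 10.35 with Y1118A, and 11.69, 11.51 and 11.24 with DSRed. All 9 arrays with an MMSET form were below all 3 DSRed arrays. Relative to DSRed, the MMSET II difference was -1.05, the F1177A difference -0.51 and the Y1118A difference -1.09 (SE 0.104 each). F1177A cells were higher by 0.54 than MMSET II cells and by 0.58 than Y1118A cells, and under median scaling these values were -0.24 and -0.18, neither called, or 0.38 and 0.44 relative to all features. MMSET II and Y1118A cells differed by 0.04 (95% interval -0.18 to 0.26).

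JCHAIN had a different order of groups. It read 13.19, 13.22 and 13.03 with +DOX, against 12.70, 12.88 and 12.62 with no DOX. It rose by 0.41 (SE 0.103, limma adjusted p = 0.00337), opposite to MZB1 and FKBP11, and the call was lost under cyclic loess (0.24, adjusted p = 0.0755) and with array brightness as a covariate (0.21, adjusted p = 0.125). In repletion cells it read 11.68, 11.54 and 11.40 for MMSET II, 11.02, 10.80 and 10.83 with F1177A, 10.82, 10.74 and 11.02 with Y1118A, and 11.88, 11.91 and 12.15 with DSRed. All 9 arrays with an MMSET form were below the 3 DSRed arrays. The difference from DSRed was -1.10 with F1177A and -1.12 with Y1118A (SE 0.103 each), and -0.44 with MMSET II, which under median scaling was -0.19 and not called (adjusted p = 0.678), or -0.40 relative to all features. JCHAIN was higher in MMSET II than in Y1118A cells by 0.68 and lower in F1177A than in MMSET II cells, with a difference of -0.66. The MMSET II rise over Y1118A was 0.69 and not called under median scaling (adjusted p = 0.163). F1177A and Y1118A cells differed by 0.03 (95% interval -0.19 to 0.24). Under median scaling that difference was -0.73 and called (adjusted p = 0.0211), or -0.11 relative to all features.

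SDC1, measured by 1 of its 3 probes, was highest in hairpin cells. It read 11.24, 11.04 and 11.07 with +DOX, against 9.99, 10.97 and 10.78 with no DOX. The groups did not overlap, and the difference of 0.54 was not called (SE 0.220, adjusted p = 0.0571). It was called without no DOX replicate 2 (0.73, adjusted p = 0.0177), under cyclic loess (0.65) and under median scaling (1.22, or 0.73 relative to all features). In repletion cells SDC1 read 4.99, 5.04 and 4.73 for MMSET II, 5.55, 4.80 and 4.58 with F1177A, 5.95, 5.91 and 6.06 with Y1118A, and 6.11, 6.47 and 6.29 with DSRed. It was detected on 0 of 3 MMSET II arrays, 1 of 3 F1177A arrays, and 3 of 3 arrays each with Y1118A and DSRed.

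SDC1 was lower with the wild-type and F1177A forms than with the Y1118A form. MMSET II cells were at least 2.17-fold lower than DSRed cells (limma adjusted p = 8.37e-05) and at least 1.75-fold lower than Y1118A cells (adjusted p = 0.00206). Here the dim group's level was taken as the lowest signal still detected on its arrays. The difference of F1177A was -1.31 from DSRed (adjusted p = 0.000248) and -1.003 from Y1118A (adjusted p = 0.00194). With brightness as a covariate the difference from Y1118A was not called (-0.90, adjusted p = 0.0553). Y1118A differed from DSRed by -0.31 without a call (95% interval -0.77 to 0.15, adjusted p = 0.305), with all its arrays below the DSRed arrays, and was called with array weights (-0.44, adjusted p = 0.00266). F1177A and MMSET II cells differed by 0.05 without a call (adjusted p = 0.875), with SDC1 undetected on 5 of their 6 arrays. Under cyclic loess that difference was 0.59 and called (adjusted p = 0.0169). All of these repletion levels are low and lie far below those of the hairpin cells, and those with MMSET II and F1177A lie near background.

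TNFRSF17 was bright in every group and stood out with Y1118A. It read 12.33, 12.21 and 12.18 for MMSET II, 12.14, 12.26 and 12.25 with F1177A, 11.46, 11.44 and 11.58 with Y1118A, and 12.28, 12.15 and 12.19 with DSRed. The 3 Y1118A arrays were below the other 9 repletion arrays. Y1118A differed from DSRed by -0.71 (SE 0.0869, 1.64-fold lower, limma adjusted p = 1.13e-05). MMSET II was higher than Y1118A by 0.75 and F1177A by 0.72. MMSET II and F1177A differed from DSRed by 0.03 (95% interval -0.15 to 0.22) and 0.01 (95% interval -0.17 to 0.19). Under median scaling Y1118A against DSRed was -0.52 (adjusted p = 0.159), MMSET II against Y1118A 0.77 (adjusted p = 0.0534) and F1177A against Y1118A 0.10 (adjusted p = 0.707), none of them called. Relative to all features those values were -0.74, 0.78 and 0.72.

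In hairpin cells TNFRSF17 read 11.94, 11.92 and 11.88 with +DOX, against 11.86, 11.61 and 11.47 with no DOX. It rose by 0.27 (SE 0.0869, adjusted p = 0.0184). The call was lost without no DOX replicate 2 (0.25), without no DOX replicate 3 (0.18), without +DOX replicate 1 (0.26), with the compared groups alone (adjusted p = 0.107) and with the brightness covariate (adjusted p = 0.135).

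SLAMF7 and CD38 gave little to compare. SLAMF7 read 5.39, 5.24 and 5.30 with +DOX, against 5.58, 5.16 and 5.78 with no DOX, with overlapping groups and no call (-0.19, adjusted p = 0.252). Without no DOX replicate 2 it was -0.37 and called (adjusted p = 0.019). The CD38 probe had intensities between -7.8 and 12.7 and was not well above background on any of the 18 arrays.

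IRF4 was lower with both mutants. It read 9.55, 9.27 and 9.38 with +DOX, against 9.74, 9.45 and 9.49 with no DOX, with overlap and no call (-0.16, adjusted p = 0.23). In repletion cells it read 9.41, 9.40 and 9.46 for MMSET II, 9.15, 9.12 and 8.90 with F1177A, 8.95, 9.20 and 9.21 with Y1118A, and 9.64, 9.61 and 9.55 with DSRed. Both mutants lay below MMSET II and DSRed on every array. The difference from DSRed was -0.55 with F1177A (limma adjusted p = 0.000954) and -0.47 with Y1118A (adjusted p = 0.0024), of which the Y1118A value was -0.18 and not called under median scaling (adjusted p = 0.705), or -0.40 relative to all features. F1177A was lower than MMSET II by a difference of -0.37, a call lost without F1177A replicate 3 (-0.29, adjusted p = 0.0582) and with the brightness covariate (adjusted p = 0.0841). MMSET II against Y1118A was 0.30 and just missed the call (adjusted p = 0.0513). It was called in 6 of 12 alternative settings.

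POU2AF1 differed between all 3 MMSET forms. It read 9.93, 9.92 and 9.94 with +DOX, against 9.62, 9.61 and 9.63 with no DOX, and rose by 0.31 (SE 0.0799, limma adjusted p = 0.0045). In repletion cells it read 8.74, 8.72 and 8.73 for MMSET II, 9.48, 9.68 and 9.57 with F1177A, 9.09, 9.14 and 9.06 with Y1118A, and 9.55, 9.43 and 9.34 with DSRed. F1177A overlapped DSRed, Y1118A lay below both, and MMSET II lay below Y1118A. The difference from DSRed was -0.71 with MMSET II (1.64-fold lower), -0.34 with Y1118A and 0.13 with F1177A, the last without a call (95% interval -0.03 to 0.30). F1177A was higher than MMSET II by 0.85 and than Y1118A by 0.48, and MMSET II was lower than Y1118A by a difference of -0.37. Under median scaling the 5 called repletion differences lost their calls. They were -0.46 and -0.06 from DSRed, 0.10 for F1177A against MMSET II, -0.30 for F1177A against Y1118A and -0.40 for MMSET II against Y1118A. Relative to all features they kept their signs, at -0.67, -0.27, 0.72, 0.32 and -0.39.

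PRDM1 depended on the probe. The brightest of its 4 probes read 10.66, 10.51 and 10.47 with +DOX, against 10.13, 10.35 and 10.33 with no DOX, without overlap and without a call (0.28, adjusted p = 0.0956). It was called under median scaling (0.95) and with the mean of its detected probes (0.49). In repletion cells it read 11.08, 10.95 and 10.86 for MMSET II, 10.84, 10.71 and 10.78 with F1177A, 11.12, 11.21 and 11.37 with Y1118A, and 10.52, 10.56 and 11.18 with DSRed. DSRed replicate 3, the brightest array of all, lay apart from the other two. Y1118A was higher than DSRed by 0.47 (limma adjusted p = 0.0115), although the arrays overlapped, and F1177A was lower than Y1118A by a difference of -0.45 (adjusted p = 0.012). The first call was lost without DSRed replicate 1 (0.36), DSRed replicate 2 (0.38) or Y1118A replicate 3 (0.41), and the second without Y1118A replicate 3 (-0.38). The first was not called under median scaling (0.71, adjusted p = 0.157) or with the compared groups alone (adjusted p = 0.0637), nor the second with brightness as a covariate (-0.09, adjusted p = 0.715). MMSET II against DSRed was 0.21 and was called only without DSRed replicate 3 (0.42, adjusted p = 0.00219) or with array weights (0.39).

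The other PRDM1 probes went other ways. The probe ILMN_2298159 was detected on 3 of 3 DSRed arrays, 2 of 3 F1177A arrays and none with MMSET II or Y1118A. It read 4.73, 4.96 and 4.73 with MMSET II and 4.63, 4.49 and 4.54 with Y1118A, against 5.72, 5.86 and 5.75 with DSRed. It was at least 1.52-fold lower with MMSET II (limma adjusted p = 9.7e-05) and at least 1.47-fold lower with Y1118A (adjusted p = 1.86e-05), where the bright probe was not lower. The probe ILMN_2294784, annotated to a second PRDM1 transcript, was detected on 3 of 3 +DOX arrays and on none of the other 15. It read 5.50, 5.51 and 5.87 with +DOX, against 4.73, 4.65 and 4.998 with no DOX. It passed the detection filter only through the +DOX arrays, so these values are a description. The fourth probe, ILMN_2414165, had no called difference in the 7 comparisons. With the mean of all detected probes, PRDM1 was -0.24 for Y1118A against DSRed and 0.055 for F1177A against Y1118A, neither called and both opposite in sign to the bright probe. Which transcripts carry each probe's target was not tested.

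**Figure D4:**
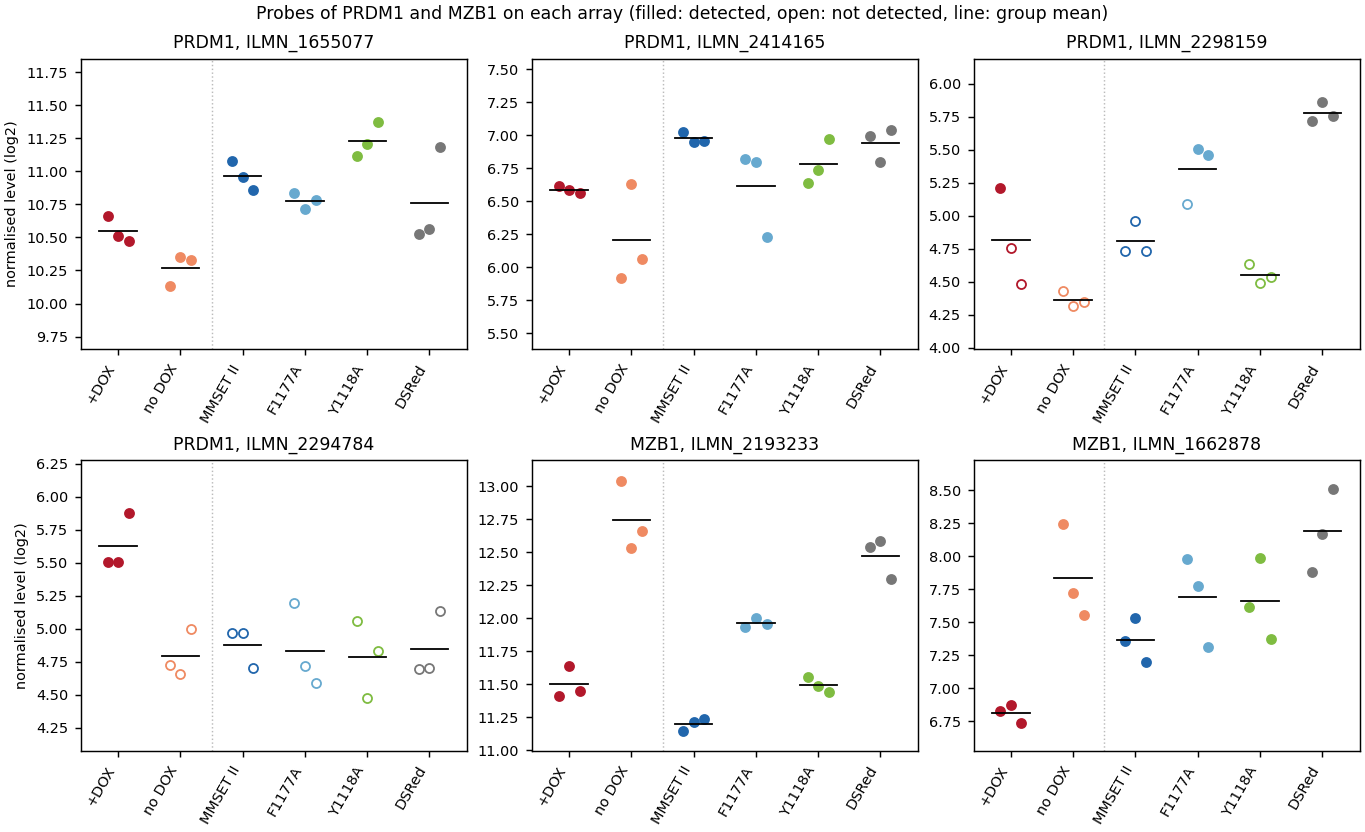
Normalised log2 level of the 4 PRDM1 probes and the 2 MZB1 probes on each of 18 arrays, 1 panel per probe, with groups along the x axis, filled points for detected and open points for undetected values, and a line at each group mean. Probe ILMN_2298159 is highest with DSRed, while ILMN_1655077 is highest with Y1118A, and ILMN_2294784 is filled only with +DOX.

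Members differed in how their levels went together over arrays, described here without a test because arrays share groups and brightness. Over the 12 repletion arrays MZB1 and FKBP11 had a Pearson r of 0.958, JCHAIN and IRF4 of 0.902, and MZB1 and POU2AF1 of 0.844. Over all 18 arrays MZB1 and FKBP11 had 0.746, and the +DOX arrays lay above the repletion arrays in FKBP11 at the same MZB1 level. FKBP11 and PRDM1 ran opposite to each other, with r of -0.895 over 18 arrays and -0.723 over the repletion arrays.

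**Figure D5:**
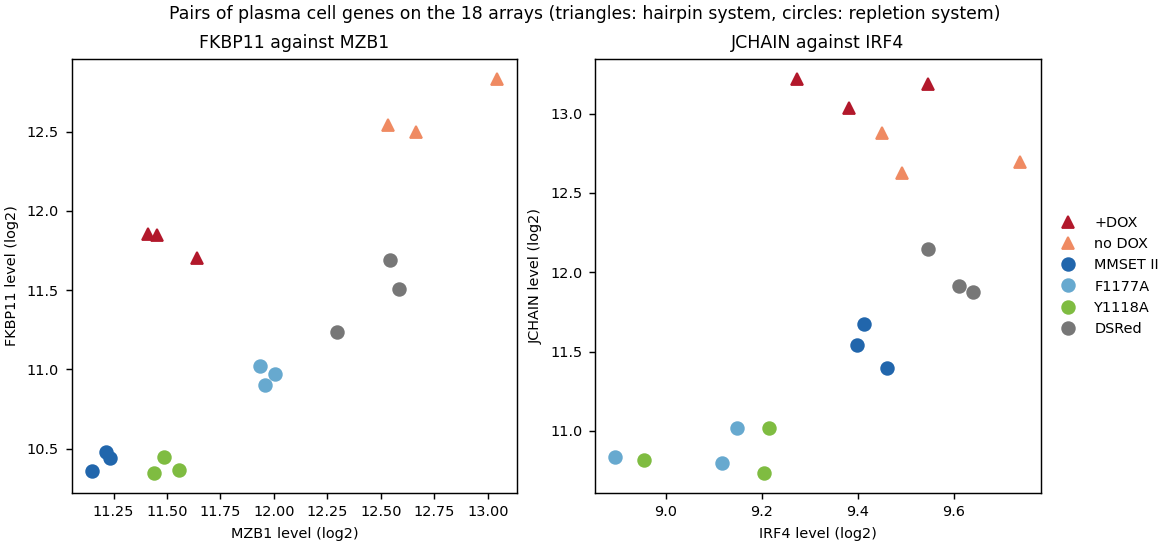
FKBP11 against MZB1 (left) and JCHAIN against IRF4 (right), both axes in normalised log2 level, with 1 point per array, triangles for the hairpin system and circles for the repletion system, coloured by group. Over the 12 circles r is 0.958 on the left and 0.902 on the right, and the hairpin arrays lie off the line of the circles.

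The named genes most like each member over 18 arrays were picked by Pearson r. MZB1 was closest to ARFGAP3, a factor of Golgi-to-endoplasmic reticulum transport (r 0.934, and 0.991 over the 12 repletion arrays), PIP5KL1 (0.933) and SIL1, a nucleotide exchange factor of the chaperone BiP (0.922). FKBP11 was closest to SRPRA, the signal recognition particle receptor subunit (0.980), TMED9, a cargo receptor of early secretory vesicles (0.977), and WIPI1, an autophagy protein (0.971). JCHAIN was closest to NIPA2 (0.969), TMX2 (0.966) and CANX, the chaperone calnexin (0.961). SDC1 was closest to QPCT (0.986), CYBA (0.985) and LCP1 (0.983), but over the 12 repletion arrays these fell to 0.697, 0.605 and 0.662, so the likeness was weaker within the repletion cells. IRF4 had lower values, with CHKA (0.847), TMEM165 (0.835) and LRRC59 (0.829).

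Other secretory genes of plasma cells, 16 of them measured from a list of 20, were lower or not called against DSRed. Against DSRed, MMSET II cells had 0 higher and 5 lower (median -0.25), where 17% of all features were higher and 15.8% lower. F1177A cells also had 0 higher and 5 lower (median -0.36), where 11.7% were higher and 8.79% lower. Y1118A cells had 0 higher and 7 lower (median -0.34), where 15.3% were higher and 12.4% lower. SSR3, a subunit of the translocon-associated complex, fell by 0.91 with MMSET II (limma adjusted p = 0.00413) and by 1.06 with Y1118A (adjusted p = 0.00186). TXNDC11, a thioredoxin-domain protein, fell by 0.59 and 0.72 in the same comparisons. SEC61B, a translocon subunit, fell by 0.91 with F1177A (adjusted p = 1.93e-05). DERL3, a component of endoplasmic reticulum-associated degradation, fell by 0.89 with Y1118A and was higher with F1177A than with Y1118A by 1.16. Under median scaling the named falls of SSR3, TXNDC11 and DERL3 were not called, at -0.74 and -0.35 with MMSET II and -0.92, -0.46 and -0.65 with Y1118A, and neither was the DERL3 rise with F1177A (0.40). Relative to all features these values were -0.95 and -0.56 with MMSET II, -1.14, -0.68 and -0.86 in Y1118A cells, and 1.02 for the DERL3 rise.

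With the hairpin on, the same list had 2 genes higher and 4 lower, with a median of -0.04. Of all features, 21.2% were higher and 20.1% lower in that comparison. DERL3 fell by 1.86 (limma adjusted p = 2.96e-06), CRELD2, a stress-induced chaperone, by 0.92 and SDF2L1, a cochaperone of BiP, by 0.74. The no DOX arrays spread widely, with an SD of 0.70 for DERL3, 0.77 for CRELD2 and 0.54 for SDF2L1. With +DOX these SDs were 0.26, 0.09 and 0.06. Under median scaling CRELD2 and SDF2L1 were not called (-0.30 and -0.19), at -0.79 and -0.67 relative to all features, and DERL3 kept its call (-1.19). The 2 genes called higher were TRAM2, a translocation-associated protein, by 0.46 (adjusted p = 0.0149) and PRDX4, a peroxiredoxin of the endoplasmic reticulum, by 0.36 (adjusted p = 0.0141). Both calls were lost with the brightness covariate (0.11 and 0.14) and without +DOX replicate 1 (0.31 for each). PRDX4 also lost its call under cyclic loess (0.18), with the compared groups alone (adjusted p = 0.0836) and without no DOX replicate 2 (0.30) or 3 (0.27).

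Of 9 measured transcription genes among 12 listed, 2 were higher and 1 lower with +DOX. The shares of all features were 21.2% higher and 20.1% lower. Against DSRed, MMSET II cells had 1 higher and 3 lower, F1177A cells 2 higher and 1 lower, and Y1118A cells 0 higher and 1 lower. In these 3 comparisons 17%, 11.7% and 15.3% of all features were higher and 15.8%, 8.79% and 12.4% lower, in that order. CREB3L2, a membrane-bound factor of the secretory programme, fell by 0.72 with MMSET II and by 1.19 with Y1118A, and was higher with F1177A than with Y1118A by 0.88. Under median scaling its MMSET II difference from DSRed (-0.43) and its F1177A difference from Y1118A (0.09) were not called, at -0.64 and 0.71 relative to all features. MEF2C was at least 1.67-fold lower with F1177A than with DSRed (limma adjusted p = 3.71e-06) and differed by -0.94 with MMSET II, where it was detected on 1 of 3 arrays. IKZF1 rose by 0.51 with MMSET II. ELL2, an elongation factor that favours secreted immunoglobulin, rose by 0.54 with +DOX. XBP1, the transcription factor of the secretory programme, rose by 0.39 with +DOX (adjusted p = 0.00355), a call lost with the brightness covariate (0.18, adjusted p = 0.137). It was lower with MMSET II than with DSRed by a difference of -0.34 (adjusted p = 0.0113). That call was lost under median scaling (-0.12, or -0.33 relative to all features), with the compared groups alone (adjusted p = 0.0793) and without DSRed replicate 3 (-0.20) or MMSET II replicate 3 (-0.28).

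Of 16 measured surface genes among 20 listed, 5 were higher and 2 lower with +DOX. The shares of all features were 21.2% higher and 20.1% lower. Against DSRed, MMSET II cells had 1 higher and 4 lower, F1177A cells 0 higher and 5 lower, and Y1118A cells 3 higher and 2 lower. In these comparisons 17%, 11.7% and 15.3% of all features were higher and 15.8%, 8.79% and 12.4% lower, in that order. The calls include CD79A (lower with MMSET II and with F1177A) and CD44 (higher with Y1118A), detected on no array of either compared group. Both passed the detection filter only through the hairpin arrays, so these calls compare signal at background. CD59, a complement inhibitor, was 8.66 ± 0.05 with +DOX and 6.80 ± 0.37 with no DOX (SD, n = 3 each), a rise of 1.87 (limma adjusted p = 2.25e-08). IL6ST, the signalling subunit of the interleukin-6 receptor, rose by 0.52, and CD79B, a subunit of the B-cell receptor, fell by 0.70. The CD79B fall was not called under median scaling (-0.07, or -0.56 relative to all features) or with the brightness covariate (-0.50, adjusted p = 0.053), nor was the IL6ST rise with that covariate (0.28, adjusted p = 0.0582). ITGB7, the integrin beta-7 chain, rose by 0.65 with MMSET II and by 0.48 with Y1118A. CD28 fell by 0.59 with MMSET II and by 0.65 with Y1118A, CAV1 fell by 0.85 with MMSET II, and LY9 fell by 0.68 with F1177A. Under median scaling the CD28 and CAV1 falls and the ITGB7 rise with Y1118A were not called (-0.35, -0.39, -0.59 and 0.45), at -0.56, -0.60, -0.80 and 0.24 relative to all features.

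Markers of earlier B-cell stages were mostly silent. Of 13 such genes with a probe, 8 were detected on no array, among them MS4A1, PAX5, EBF1 and CD22, and 4 passed the detection filter. These 4 were called higher with +DOX, where 21.2% of all features were. Relative to DSRed, MMSET II cells and Y1118A cells each had 2 of the 4 called higher, where 17% and 15.3% of all features were. F1177A cells had 1 called higher, where 11.7% of all features were, and 0 were called lower in these comparisons. The MMSET II count includes CR2, at 4.97 against 4.41 with DSRed. CR2 was detected on no repletion array and passed the filter only through the hairpin arrays, so that call compares signal at background. The +DOX count includes BCL6, which passed the filter only through its +DOX arrays, so its values are a description. BCL6, the germinal centre repressor that PRDM1 opposes, was 6.47 ± 0.15 with +DOX and 4.88 ± 0.49 with no DOX (SD, n = 3 each), where it was detected on 1 of 3 arrays. CR2, the complement receptor, rose by 0.64 (limma adjusted p = 0.000486), SPIB, an ETS factor, by 0.57 and BACH2, a repressor, by 0.52. The SPIB and BACH2 calls were lost under cyclic loess (0.39 and 0.30), with the compared groups alone (adjusted p = 0.0904 and 0.101), with the brightness covariate (0.28 and 0.16) and without no DOX replicate 3 (0.40 and 0.32) or +DOX replicate 1 (0.41 and 0.36). SPIB also lost its call without no DOX replicate 1 (0.51), with normalisation within the system (0.46) and with array weights (0.34).

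Of 4 measured epithelial and stromal markers, EPCAM and PDGFRB were called higher in all 3 comparisons with DSRed, in which the secretory members were lower. The other markers, PECAM1 and KRT18, were not called. PECAM1 had means of 5.22 to 5.28 in the 4 repletion groups, and KRT18 was undetected there. EPCAM and PDGFRB rose least with Y1118A, whereas MZB1 and FKBP11 fell least with F1177A and JCHAIN with MMSET II. EPCAM, an epithelial adhesion protein, was 7.004 ± 0.15 with MMSET II, 6.27 ± 0.06 with F1177A, 5.35 ± 0.01 with Y1118A and 4.67 ± 0.12 with DSRed (SD, n = 3 each), where it was detected on no array. It was at least 3.1-fold higher with MMSET II and at least 1.86-fold higher with F1177A than with DSRed. In the hairpin cells it was 10.15 ± 0.09 with +DOX and 9.94 ± 0.31 with no DOX. PDGFRB, a growth factor receptor of stromal cells, was also higher than with DSRed, where it was detected on 1 of 3 arrays. Its difference was 0.82 for MMSET II, 0.97 for F1177A and 0.40 for Y1118A. The Y1118A call was lost under median scaling (0.57, adjusted p = 0.0529), with the series matrix values (0.40, adjusted p = 0.121) and without DSRed replicate 1 (0.43) or 2 (0.32) or Y1118A replicate 2 (0.37) or 3 (0.34). KRT18, an epithelial keratin, was lower with +DOX than with no DOX by a difference of -0.63. It was not called under cyclic loess (-0.25) or median scaling (0.003, with its sign turned, or -0.48 relative to all features). COL1A1, COL1A2, COL3A1, DCN, KRT8 and VWF were detected on no array. Whether the RNA of these genes came from the KMS11 cells or from other cells was not tested, nor was any part in the members' differences.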

How the data were processed

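Total RNA was amplified, labelled with biotin and hybridised to bead arrays, per the labels' protocols. Values in the deposited table are probe intensity before normalisation, per the file headers. Of them, 31.1% lay below 0, so some background had been subtracted, and how is not given in these sources. Each intensity is paired with a deposited detection p-value, per the file headers. The submitters' processing notes name GenomeStudio 1.5.4. The authors' deposited series matrix, read as intensity on a linear scale, gave the summed marker intensities and was otherwise an alternative only. Each of its columns has a median of 3, so it was scaled between arrays by a step that stays unknown. No slide is given.

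Background was corrected by the neqc method of limma 3.58.1 (R 4.3.3) with controls inferred from the detection p-values and an offset of 16, which understates differences of dim probes. Values were quantile-normalised over 18 arrays and put on the log2 scale. Probes detected (p under 0.01) on at least 3 arrays were kept, 13336 of 48803, and the brightest was taken per symbol. Of all probes 27578 had 1 symbol, 13 several and 21212 none. This gave 10954 features, 2007 of them unnamed probes. Each of 7 comparisons came from 1 limma model over all arrays (12 residual degrees of freedom), two-sided, with Benjamini-Hochberg adjustment over all features and a call under 0.05. The model was tested on simulated data. Where a probe was undetected on all arrays of a group, the fold is a bound against the lowest detected signal of that group.

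Members, gene lists and tests were chosen with earlier results of these data known. All members are named. From other lists, genes were named from the 3 largest called differences in each direction. BACH2 and the values of IGLL1, IKZF1, CD44, CD79B and EPCAM across systems were added after their values were seen, and so was the fit of each probe on its own. Same-numbered arrays deviated together (every r over 0.1) only for F1177A against MMSET II, with r of 0.275, 0.168 and 0.219. Alternatives were other normalisations, offsets, filters, probe rules, array weights, brightness as a covariate, a replicate block and each array left out.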

Additional observations from a re-analysis of the deposited data

How the results depend on the processing

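The 63 member differences were computed again under 12 other settings and without each array in turn. All 63 kept direction and call with the series matrix values, without a filter and with a replicate block. With the replicate block the counts of called features were 4400 for +DOX, 3434, 2108 and 2883 for MMSET II, F1177A and Y1118A against DSRed, 1869 for MMSET II against Y1118A, and 4090 and 3827 for F1177A against MMSET II and Y1118A. Requiring detection on all 18 arrays removed SDC1 and SLAMF7 and gave 1441 called features for F1177A against DSRed. Median scaling gave 1444 and 3 members for MMSET II against DSRed, 831 and 3 members for Y1118A against DSRed, 560 and 1 member for MMSET II against Y1118A, and 6543 and 6835 features for F1177A against MMSET II and Y1118A. It turned FKBP11 to -0.24 in F1177A against MMSET II, and MZB1 (-0.20), JCHAIN (-0.73), FKBP11 (-0.18) and POU2AF1 (-0.30) in F1177A against Y1118A, where the median of all features had moved as well. The mean of detected probes turned PRDM1 to -0.24 in Y1118A against DSRed and to 0.055 in F1177A against Y1118A. With the compared groups alone, calls numbered 2828 for +DOX, 4074 and 7 members for MMSET II against Y1118A, and 6123 for F1177A against Y1118A. Array weights gave 6821, 4407 and 7194 for MMSET II, F1177A and Y1118A against DSRed, 4563 and 7 members for MMSET II against Y1118A, and 6370 for F1177A against Y1118A. With brightness as a covariate, 3 members were called for +DOX and 7 for MMSET II against Y1118A, 2537 features for F1177A against MMSET II, and 1319 features and 3 members for F1177A against Y1118A. The estimate of the array weights stopped before its tolerance was reached. Leaving out 1 array gave 1901 to 4272 features for Y1118A against DSRed, with 1901 and 1923 without DSRed replicates 1 and 2 and 2016 without Y1118A replicate 3. For MMSET II against Y1118A it gave 1348 (without Y1118A replicate 1) to 1526. Of 378 member differences without 1 array, 348 kept direction and call, 8 lost the call, 3 gained it, 0 reversed and 19 uncalled values changed sign. Of 828 values of named genes that are not members, 774 kept direction and call, 53 lost the call and 1 turned (KRT18 with +DOX under median scaling, 0.00304). The cause of these changes was not tested. A block for slides was not run, since the files give none. Members that are dim or near background (SDC1 in repletion cells, SLAMF7, CD38) are limited by signal over background.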
